A study of Mus musculus with 6 samples.

Results

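The 40 cell cycle and proliferation genes described here are carried by dividing cells: the Mcm helicase subunits and other replication factors, the nucleotide supply enzymes, the cyclins with Cdk1, the mitotic kinases and checkpoint genes, the centromere and spindle genes, and the general proliferation markers Mki67, Top2a and Foxm1. They were listed by name as a measure of cell division, with earlier results of these data known, and all 40 were found by gene symbol among the 24661 genes measured. RNA-seq of olfactory mucosa was compared between 3 wild-type mice and 3 mice lacking both receptor transporting proteins (RTP1 and RTP2 -/-, called RTP1/2 dKO in the sample titles and RTP1,2DKO here). All 6 mice were labelled C57BL/6 and were 21 days old. Gene targeting in ES cells of mixed 129/B6 origin had put a loxP site and a puromycin cassette in place of the Rtp1 and Rtp2 coding sequences, the deletion is present in every cell of the animal, and the study's methods describe the mice as sex-matched littermates.

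The olfactory epithelium makes neurons throughout life. Horizontal basal cells are largely quiescent reserve stem cells, while globose basal cells divide and give rise to neuronal progenitors, which stop dividing and become immature and then mature olfactory sensory neurons. RTP1 and RTP2 help odorant receptors reach the surface of the mature neurons. Genes of the cell cycle are transcribed in waves: the helicase, the polymerase clamp and the nucleotide enzymes before and during DNA synthesis, largely under E2F factors, and the mitotic genes later, through promoters that hold CCAAT boxes and cell cycle gene homology regions.

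Each library held between 31125410 and 41636996 estimated counts. Rtp1 had 20522, 25301 and 13543 normalized counts in wild-type mice 1, 2 and 3 and 90.6, 85.5 and 109 in RTP1,2DKO mice 1, 2 and 3, and Rtp2 had 8497, 9510 and 7157 against 58.0, 26.2 and 51.0, so every library matched its label at the deleted genes. A normalized count is the count divided by a size factor of the library, which ranged from 0.907 to 1.147. Omp, the standard marker of mature olfactory sensory neurons, was abundant in all mice, with 67308, 60014 and 67100 normalized counts in the wild-type and 27622, 36678 and 39605 in the RTP1,2DKO mice (log2 fold change -0.90, adjusted p = 0.003, edgeR's quasi-likelihood test). Markers of bone, cartilage and blood cells were measured too, and in such bulk RNA fewer cells of a type and less RNA per cell cannot be told apart.

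The promoters of the cell cycle genes share letters that the choice of genes did not use. RefSeq promoter windows on GRCm38.p6, from 250 bases before to 50 after the start, were at hand for 33 of the 40 genes (35 windows, as Mcm7 and Prc1 have more than 1). Those of Mcm3, the gene that passed edgeR's test between genotypes, and of Ccnb1, Cenpf, Nusap1 and Top2a, which passed edgeR's test once mice were compared within same-numbered pairs, are printed 5′ to 3′ on the strand of the gene. Capitals mark matches, on either strand, to CCAAT, to TTTGAA or TTCGAA (the cell cycle gene homology region), or to the E2F letters TTTGGCGC, TTTCCCGC, TTTCGCGC and TTCCCGCC, the last of which can overlap TTTCCCGC. The Mcm3 window lies at chr1:20820263-20820562 (minus strand), Ccnb1 at chr13:100786437-100786736 (minus), Cenpf at chr1:189688037-189688336 (minus), Nusap1 at chr2:119618048-119618347 (plus) and Top2a at chr11:99024140-99024439 (minus).
Mcm3: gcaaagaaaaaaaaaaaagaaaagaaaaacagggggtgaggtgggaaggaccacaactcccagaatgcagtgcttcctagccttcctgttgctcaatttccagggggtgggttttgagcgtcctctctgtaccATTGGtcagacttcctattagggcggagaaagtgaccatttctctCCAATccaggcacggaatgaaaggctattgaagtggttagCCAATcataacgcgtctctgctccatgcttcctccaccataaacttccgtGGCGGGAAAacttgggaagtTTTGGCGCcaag
Ccnb1: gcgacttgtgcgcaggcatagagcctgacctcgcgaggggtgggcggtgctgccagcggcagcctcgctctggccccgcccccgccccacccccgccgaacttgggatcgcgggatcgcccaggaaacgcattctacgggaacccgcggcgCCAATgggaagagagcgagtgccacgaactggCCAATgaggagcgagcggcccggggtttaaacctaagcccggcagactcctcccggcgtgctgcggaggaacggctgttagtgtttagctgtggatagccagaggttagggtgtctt
Cenpf: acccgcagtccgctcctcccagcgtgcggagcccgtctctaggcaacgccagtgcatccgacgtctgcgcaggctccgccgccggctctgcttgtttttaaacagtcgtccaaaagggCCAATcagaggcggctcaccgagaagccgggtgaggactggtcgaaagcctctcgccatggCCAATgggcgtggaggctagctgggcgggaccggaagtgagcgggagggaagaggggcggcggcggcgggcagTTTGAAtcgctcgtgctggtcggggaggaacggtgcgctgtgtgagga
Nusap1: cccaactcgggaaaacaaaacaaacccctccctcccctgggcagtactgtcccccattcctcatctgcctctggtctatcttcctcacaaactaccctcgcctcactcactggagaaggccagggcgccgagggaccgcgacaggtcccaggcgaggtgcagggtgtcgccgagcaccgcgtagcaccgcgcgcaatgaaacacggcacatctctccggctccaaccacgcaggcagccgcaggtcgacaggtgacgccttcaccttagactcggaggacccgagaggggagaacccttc
Top2a: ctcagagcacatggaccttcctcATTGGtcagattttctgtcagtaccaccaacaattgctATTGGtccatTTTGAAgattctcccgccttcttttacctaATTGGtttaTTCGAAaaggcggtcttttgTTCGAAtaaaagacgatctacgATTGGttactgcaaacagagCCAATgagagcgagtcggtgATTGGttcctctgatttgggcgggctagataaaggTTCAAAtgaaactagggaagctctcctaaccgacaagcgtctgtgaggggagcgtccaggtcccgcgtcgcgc

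The Mcm3 window held CCAAT or its reverse at -117, -72 and -32 from the start and E2F letters at 19, 20 and 39, where the matches at 19 and 20 overlap. The Ccnb1 window held CCAAT at -99 and -67 and no match to the other letters, Cenpf held CCAAT at -132 and -71 and TTTGAA at 3, Top2a held 10 matches, and Nusap1 held none. CCAAT was found in 28 of the 35 windows (80.0%) against 37.4% of all 32851 promoter windows of the same length. TTTGAA or TTCGAA was found in 20 windows (57.1% against 19.2%). E2F letters were found in 7 of the 35 windows, against 3.49% of all windows, and these belonged to Mcm3, Mcm5, Mcm6, Mcm7, Cdc6, Cdk1 and Rrm1, of which all but Cdk1 serve DNA replication. A match is a run of letters and not a measured binding site.

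Per length, the genes spanned a wide range of RNA levels, from 55.8 normalized counts per kilobase of effective transcript length for Cdc6 to 2171 for Ube2c, with a median of 206. Those over 1000 were Ube2c, the ubiquitin-conjugating enzyme of the anaphase-promoting complex, with 2171, Pcna, the sliding clamp of DNA polymerase, with 1957, and Rrm2 and Rrm1, the subunits of ribonucleotide reductase, with 1384 and 1049. No member was near the limit of detection, as the lowest value of any gene in any mouse was 48.6 normalized counts, for Gins2 in wild-type mouse 1.

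All 40 genes had a higher fitted level in the RTP1,2DKO mice, with log2 fold changes from 0.11 (Cdc45) to 0.74 (Gins2) and a median of 0.46. Over all 22152 genes tested the median was 0.02, and 52.6% of genes lay above 0. Yet 1 of the 40, Mcm3, passed an adjusted p of 0.05 in edgeR's quasi-likelihood test, where 0.46% of all genes were called higher, and none was called lower, where 3.15% of all genes were. At an unadjusted p of 0.05, 26 of the 40 were higher, against 4.58% of all genes, and none was lower. DESeq2, also without pairing, called 7 higher (Mcm3, Ccnb1, Ccna2, Cenpf, Tpx2, Prc1 and Top2a), against 0.98% of all genes, and none lower. With the same-numbered mice kept as pairs in edgeR's fit, 7 were called higher, against 0.885% of all genes: Mcm3, Ccnb1, Ccna2, Cenpf, Tpx2, Nusap1 and Top2a.

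**Figure D1:**
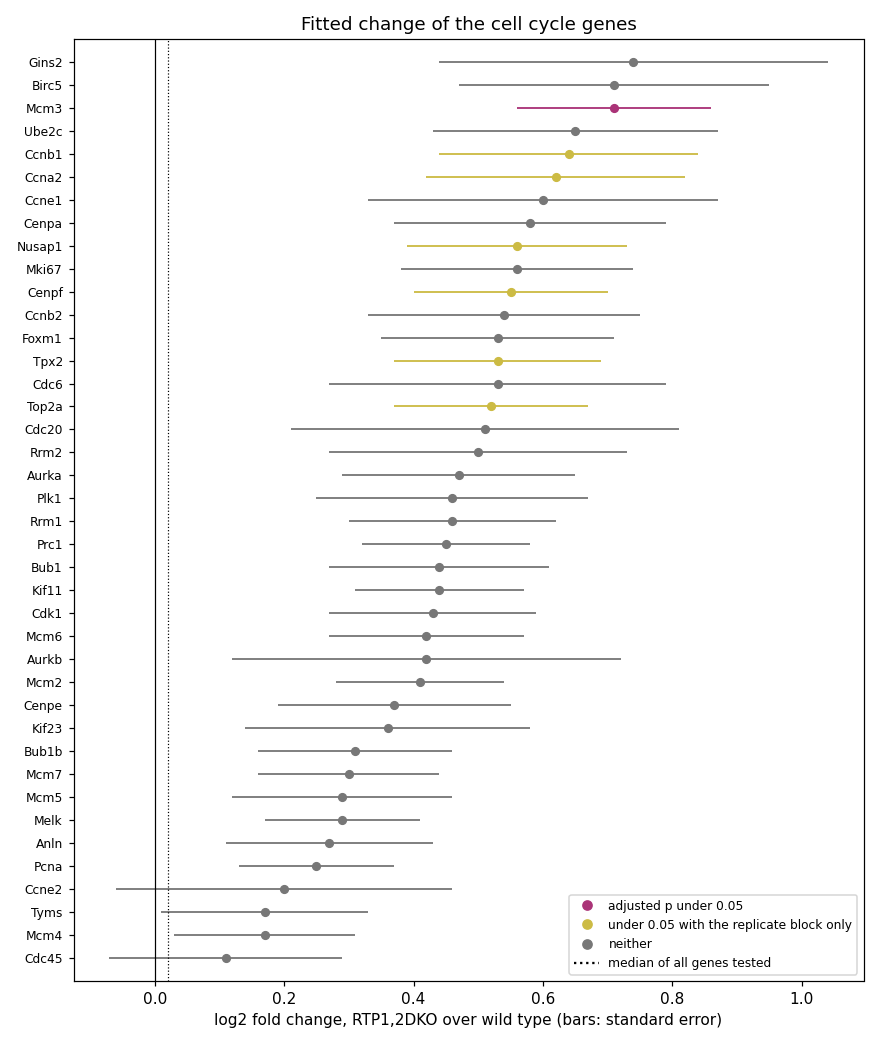
Log2 fold change (RTP1,2DKO over wild type, x axis) of each of the 40 genes (y axis) with its standard error, from the fit over all genes. Every estimate lies above 0, between 0.11 and 0.74, and Mcm3 is the gene called by edgeR's quasi-likelihood test without the pairing.

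In normalized counts, the mice of the groups overlapped for 18 of the 40 genes. For the other 22, every RTP1,2DKO mouse lay above every wild-type mouse, against 7.17% of all genes, and for no member did they all lie below it, against 9.24%. Within the same-numbered pairs, 36 of the 40 genes were higher in the mutant in all 3 pairs, against 16.1% of all genes. Among the 15430 genes with a mean of at least 50 normalized counts, which include all 40, the shares were 0.642% called higher, 5.66% higher at an unadjusted p of 0.05, 52.5% above 0, 8.11% with every mutant above every wild type and 18.3% higher in all 3 pairs.

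The spread between mice had a clear shape. Scored as the mean over the 40 genes of each gene's z-score across the 6 mice, wild-type mice 1, 2 and 3 had -0.85, -0.03 and -1.11, and RTP1,2DKO mice 1, 2 and 3 had 1.01, 0.86 and 0.12. The group means of this score were -0.662 ± 0.565 and 0.662 ± 0.479 (SD, n = 3), a difference of 1.32 that is given without a test because it is a score over chosen genes. With these normalized counts the scores of the groups did not overlap, but wild-type mouse 2 and RTP1,2DKO mouse 3 lay close together. Computed from log2(TPM + 0.1) in place of normalized counts, the difference was 0.51, and the TPM values summed over the 40 genes overlapped, with 382, 566 and 273 in the wild-type mice and 612, 472 and 353 in the mutants.

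The 40 genes summed to 24364, 30489 and 23167 normalized counts in the wild-type mice and to 39569, 36850 and 30631 in the RTP1,2DKO mice, a ratio of group means of 1.37. As a share of all counts this was between 0.0616% and 0.096% in the wild type and between 0.0815% and 0.121% in the mutant. These shares overlapped, as wild-type mouse 2 had 0.096% and RTP1,2DKO mouse 3 had 0.0815%. The size factors of these 2 mice were 1.0481 and 1.0205, and scaling by total counts gave 0.9447 and 1.0886. Genes with groups apart were not counted under that scaling. Wild-type mouse 2 had the highest wild-type value for 31 genes, and RTP1,2DKO mouse 3 had the lowest mutant value for 33. For 24 of the 40 genes, RTP1,2DKO mouse 3 was still above wild-type mouse 2, with a mean log2 difference between these 2 mice of 0.03. All 3 mutants lay above both wild-type mouse 1 and wild-type mouse 3 for 33 genes.

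**Figure D2:**
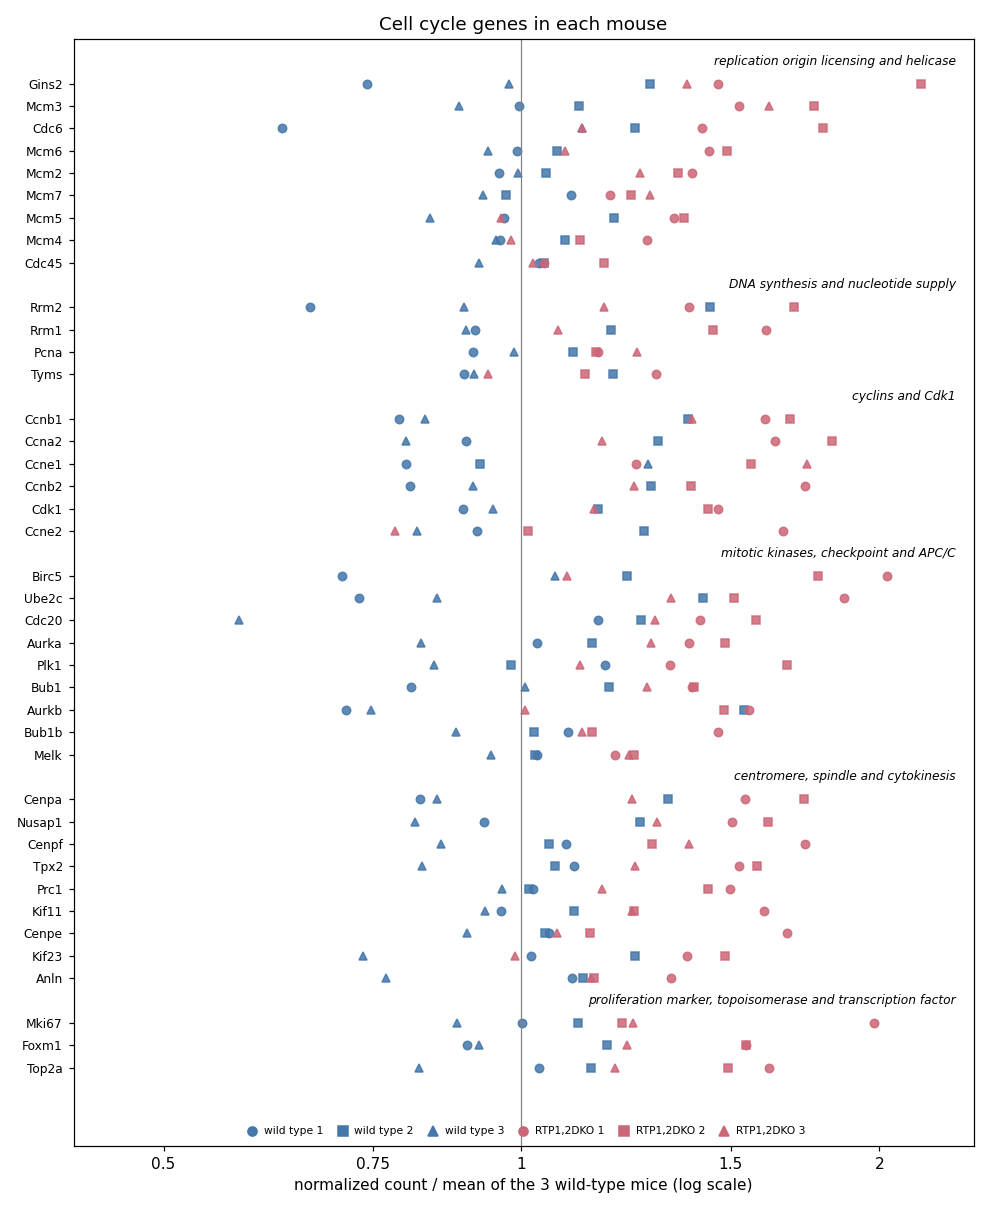
Normalized count of each of the 40 genes in each of the 6 mice, divided by the mean of the 3 wild-type mice (log scale), 1 row a gene and 1 point a mouse. Wild-type mouse 2 sits to the right of the other wild-type mice for 31 genes, and RTP1,2DKO mouse 3 to the left of the other mutants for 33.

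The genes of replication licensing and of the helicase load and start the machine that unwinds DNA. Of these 9 genes, 1 was called higher, 5 had groups that did not overlap, and the median log2 fold change was 0.41. Mcm3, a subunit of the Mcm2 to Mcm7 helicase ring (chr1:20802968-20820312, minus strand, GRCm38), had 322, 362 and 287 normalized counts in the wild-type mice and 493, 570 and 523 in the RTP1,2DKO mice. The groups did not overlap, and no mutant was near the wild-type range. Its means were 323 ± 37.5 and 529 ± 38.9 (SD, n = 3), 1.64-fold apart, with a log2 fold change of 0.71 (SE 0.15, adjusted p = 0.019, edgeR's quasi-likelihood test). The call was lost when wild-type mouse 3, RTP1,2DKO mouse 2 or RTP1,2DKO mouse 3 was left out, with an adjusted p of up to 0.0937 and log2 fold changes from 0.63 to 0.80 over the 6 fits of that kind, and it was also lost with scaling by total counts.

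The other subunits of the ring had smaller differences. Mcm2 had 465, 509 and 482 counts against 675, 657 and 610, which did not overlap (log2 fold change 0.41, SE 0.13, adjusted p = 0.1521, edgeR's quasi-likelihood test). Mcm6 had 703, 759 and 665 against 1020, 1056 and 771, and Mcm7 had 469, 414 and 396 against 506, 527 and 547. In both the groups were apart, with log2 fold changes of 0.42 and 0.30, and neither passed the test. Mcm4 had 578, 655 and 573 counts against 768, 674 and 590, so that RTP1,2DKO mouse 3 lay inside the wild-type range (0.17, SE 0.14). Mcm5 overlapped too, with 626, 774 and 542 against 869, 887 and 622 (0.29, SE 0.17).

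Gins2 and Cdc45 join the ring to form the active helicase, and they were the ends of the range. Gins2 had 48.6, 84.0 and 63.9 counts in the wild-type mice and 95.9, 142 and 90.2 in the mutants. Its groups were apart by a few counts, and at this low level its estimate of 0.74 had the wide standard error of 0.30 (adjusted p = 0.3295, edgeR's quasi-likelihood test). Cdc45 had 193, 195 and 172 against 195, 219 and 191, nearly level across mice (0.11, SE 0.18). Cdc6, which loads the helicase onto origins, ranged from 114 to 226 counts in the wild type and from 204 to 325 in the mutant.

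Genes of DNA synthesis and nucleotide supply had a median log2 fold change of 0.36, and none of the 4 was called by edgeR or DESeq2 (2 were higher at an unadjusted p of 0.05). Pcna had 1145, 1390 and 1241 counts in the wild-type mice and 1460, 1454 and 1575 in the RTP1,2DKO mice. The groups did not overlap, but the difference was small (1259 ± 123 and 1496 ± 68.0, log2 fold change 0.25, SE 0.12). Rrm2, the cell cycle regulated subunit of ribonucleotide reductase, had 1250, 2713 and 1682 against 2603, 3188 and 2206. Wild-type mouse 2 exceeded RTP1,2DKO mice 1 and 3, and the estimate of 0.50 had a standard error of 0.23. Rrm1, with 2776, 3609 and 2726 against 4878, 4403 and 3262, overlapped in the same mice, wild type 2 and RTP1,2DKO 3. Tyms, which makes thymidylate, had 667, 891 and 680 against 968, 844 and 699 (0.17, SE 0.16). Its means, 746 ± 126 and 837 ± 135 (SD, n = 3), differed by less than either SD.

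The cyclins with Cdk1 drive entry into S phase and mitosis. Their median log2 fold change was 0.57, and none of the 6 was called by edgeR without the pairing, while 5 were higher at an unadjusted p of 0.05 and DESeq2 called 2. Ccnb1, the cyclin B1 that activates Cdk1 at mitosis, had 473, 828 and 497 counts in the wild-type mice and 961, 1008 and 834 in the mutants. The groups did not overlap, by the margin between wild-type mouse 2 at 828 and RTP1,2DKO mouse 3 at 834. Its log2 fold change was 0.64 (SE 0.20) with adjusted p = 0.1286 in edgeR's quasi-likelihood test, and 0.68 with adjusted p = 0.0239 with the pairing block.

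Ccna2, the cyclin A2 of S phase and G2, had 873, 1266 and 777 counts against 1588, 1772 and 1135. Wild-type mouse 2 lay above RTP1,2DKO mouse 3 while each mutant exceeded its same-numbered wild type. Its log2 fold change of 0.62 (SE 0.20) had adjusted p = 0.1378 in edgeR's quasi-likelihood test without the pairing block and 0.0095 with it. Cdk1 itself had 387, 502 and 410 against 634, 621 and 498, overlapping by 4 counts in the rounded values of those same mice (0.43, SE 0.16, adjusted p = 0.2496, and 0.1574 with the pairing block, edgeR's quasi-likelihood test). Ccne1 and Ccne2, the E cyclins of the G1 to S transition, had log2 fold changes of 0.60 and 0.20 with standard errors of 0.27 and 0.26. Ccnb2, the other mitotic B cyclin, had 200, 319 and 226 counts against 430, 345 and 309.

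Of the 9 mitotic kinases, checkpoint genes and genes of the anaphase-promoting complex, none was called by edgeR or DESeq2, 6 were higher at an unadjusted p of 0.05, 5 had groups apart, and the median log2 fold change was 0.46. Ube2c had 463, 901 and 538 counts in the wild-type mice and 1185, 956 and 847 in the mutants, where wild-type mouse 2 lay above RTP1,2DKO mouse 3 (0.65, SE 0.22, adjusted p = 0.1858, edgeR's quasi-likelihood test). Birc5, or survivin, the chromosomal passenger that works with Aurkb, had 245, 426 and 370 against 705, 616 and 379. RTP1,2DKO mouse 3 was again within the wild-type range, and the other mutants were far above it (0.71, SE 0.24, adjusted p = 0.1882, edgeR's quasi-likelihood test). Bub1, a spindle checkpoint kinase, had 252, 370 and 314 against 434, 436 and 398, and the kinase gene Melk had 737, 735 and 675 against 857, 890 and 881. In both the groups were apart. Aurkb, with 96.2, 208 and 101 against 210, 200 and 136, had a log2 fold change of 0.42 with a standard error of 0.30.

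The 9 centromere, spindle and cytokinesis genes had groups apart in 7 cases and a median log2 fold change of 0.45. None was called by edgeR without the pairing (6 were higher at an unadjusted p of 0.05, and DESeq2 called 3), and Cenpf, Tpx2 and Nusap1 were called with it. Cenpf, a large kinetochore protein, had 737, 713 and 578 counts in the wild-type mice and 1171, 870 and 936 in the mutants. Every mutant lay above every wild type, and the log2 fold change was 0.55 (SE 0.15), with adjusted p = 0.0766 without the pairing block and 0.0357 with it in edgeR's quasi-likelihood test.

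Tpx2, which activates Aurka at the spindle, had 564, 544 and 420 against 776, 803 and 635, and Nusap1, a spindle microtubule protein, had 434, 587 and 380 against 702, 753 and 607. Both had groups apart, and in edgeR's quasi-likelihood test with the pairing block their adjusted p was 0.0334 and 0.0338. Kif11, the motor that separates the spindle poles, had 1542, 1774 and 1494 against 2564, 1994 and 1986. Its log2 fold change of 0.44 had the small standard error of 0.13 and an adjusted p of 0.1184 in edgeR's quasi-likelihood test. Cenpa, the histone H3 variant of centromeres, had 202, 327 and 209 against 379, 425 and 305, with wild-type mouse 2 above RTP1,2DKO mouse 3.

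Mki67, Top2a and Foxm1, read most often as marks of proliferation, all had groups apart. None was called by edgeR without the pairing, all 3 were higher at an unadjusted p of 0.05, and DESeq2 called 1. Mki67, which encodes the Ki-67 antigen, had 1378, 1534 and 1215 counts in the wild-type mice and 2725, 1670 and 1708 in the mutants. RTP1,2DKO mouse 1 stood well above the other mutants, and those were close to wild-type mouse 2. The means were 1376 ± 160 and 2034 ± 598 (SD, n = 3), and the log2 fold change of 0.56 (SE 0.18) did not pass (adjusted p = 0.1472, edgeR's quasi-likelihood test).

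Top2a, the topoisomerase that untangles replicated chromosomes, had 2496, 2760 and 1976 against 3895, 3594 and 2889. The lowest mutant lay just above the highest wild type, and the log2 fold change of 0.52 (SE 0.15) had adjusted p = 0.099 without the pairing block and 0.0154 with it in edgeR's quasi-likelihood test. Foxm1, the transcription factor of the G2 and mitotic program, had 209, 274 and 214 against 359, 359 and 285 (0.53, SE 0.18). Across the 6 mice, the z-score of Foxm1 followed the mean of the other 39 genes most closely (Pearson r = 0.990), that of Ccne1 least (0.435), and the median was 0.871. The 6 points share their libraries and the genotype difference, so these values are descriptions.

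Most S phase, G2 and mitosis genes outside the 40 leaned the same way. Of 86 further S phase, G2 and mitosis genes, 83 had a higher fitted level, 2 were called higher and none lower, and the median log2 fold change was 0.33 (0.27 for the 34 S phase genes and 0.43 for the 52 of G2 and mitosis). The called genes were Gmnn, the replication licensing inhibitor geminin, with 432, 388 and 366 counts against 718, 663 and 581, and Cdca5, which holds sister chromatids together, with 155, 257 and 172 against 396, 365 and 319. Their groups did not overlap, and their log2 fold changes were 0.72 and 0.89 (adjusted p = 0.0125 and 0.032, edgeR's quasi-likelihood test). The call of Gmnn was lost without wild-type mouse 3 or RTP1,2DKO mouse 1 (adjusted p up to 0.0653), that of Cdca5 without wild-type mouse 1 or 3 or RTP1,2DKO mouse 1 or 2 (up to 0.1156), and both with scaling by total counts, in edgeR's quasi-likelihood test. With the pairing block, 6 of the 86 were called, against 0.885% of all genes called higher. At an unadjusted p of 0.05 in edgeR's quasi-likelihood test, 30 of the 86 were higher, against 4.58% of all genes. In 31 every mutant lay above every wild type, against 7.17%, and 58 were higher in all 3 same-numbered pairs, against 16.1%.

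Genes that act before S phase or hold cells out of it were nearer to 0. Of 28 such genes none was called by edgeR, 21 had a higher fitted level, and the median log2 fold change was 0.18 for the 16 G1 cyclins, kinases and E2F factors and 0.22 for the 12 inhibitors and pocket proteins. In this list 5 were higher at an unadjusted p of 0.05, against 4.58% of all genes, and DESeq2 called 0. In 5 of the 28 every mutant lay above every wild type, against 7.17% of all genes. E2f8, a repressor of the E2F family, was among them, with 197, 180 and 202 counts against 340, 293 and 248 (0.61, SE 0.18, adjusted p = 0.1105, edgeR's quasi-likelihood test). The D cyclin gene Ccnd1 was another, with 3541, 3525 and 3648 against 3694, 3814 and 3980, a small difference (0.10, SE 0.11). Ccnd2, with 3314, 3274 and 3096 against 3190, 3238 and 2906, and Cdkn1a, the p21 inhibitor, with 1110, 1002 and 1129 against 1084, 1101 and 1133, overlapped. These 4 were picked as examples after their values were seen.

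**Figure D3:**
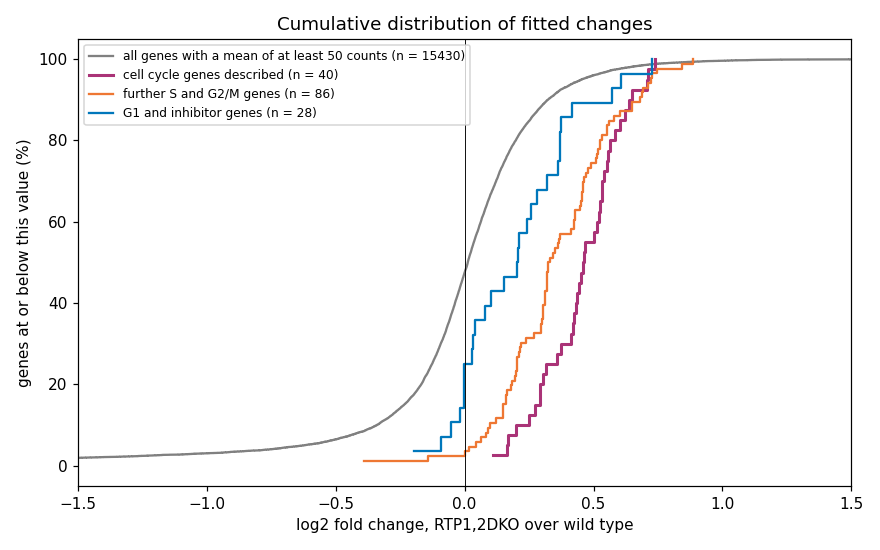
Cumulative distribution of fitted log2 fold changes (x axis, RTP1,2DKO over wild type) as the percent of genes at or below each value (y axis). Curves show the 40 cell cycle genes, the further cell cycle lists and the 15430 genes averaging at least 50 normalized counts. The curve of the 40 genes lies wholly to the right of 0, with a median of 0.46 against 0.01 for those 15430 genes.

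Markers of dividing neuronal progenitors differed between the mice in a like order. Of 10 globose basal cell and progenitor genes, 9 had a higher fitted level, and the median log2 fold change was 0.47. In 8 of the 10 every mutant lay above every wild type, against 7.17% of all genes. Their mean z-scores were -0.55, -0.38 and -1.07 in the wild-type and 0.85, 0.71 and 0.44 in the RTP1,2DKO mice. Hes6, a factor of early neuronal commitment, was called higher, with 363, 390 and 395 counts against 687, 675 and 566 (0.75, adjusted p = 0.0089, edgeR's quasi-likelihood test), and Insm1, a zinc finger factor of progenitors, was called too with the pairing block (adjusted p = 0.0244).

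Neurog1, a factor of neuronal precursors, had 241, 180 and 159 counts against 377, 252 and 248. Its groups were apart, and it did not pass the test (0.59, adjusted p = 0.261, edgeR's quasi-likelihood test). Of the 6 horizontal basal cell genes none was called by edgeR or DESeq2 or had an unadjusted p under 0.05 (0 of 6), and the median was 0.07. The keratin gene Krt5 had 925, 1106 and 1620 counts against 960, 1006 and 2415, and Trp63, the factor that keeps these cells in reserve, had 1468, 1616 and 1398 against 1496, 1527 and 1869, so both overlapped.

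Of 9 immature neuron genes, 2 were called higher: Gap43, a growth cone protein, with 1802, 1422 and 1275 counts against 2026, 2282 and 2408 (0.58, adjusted p = 0.0418), and Gng8, the G protein subunit of immature neurons, with 228, 169 and 205 against 395, 330 and 403 (0.91, adjusted p = 0.0104, both in edgeR's quasi-likelihood test). The call of Gap43 was lost in every fit without 1 mouse except the fit without wild-type mouse 1, and also with scaling by total counts and with an expression filter (adjusted p = 0.1275 and 0.0509, edgeR's quasi-likelihood test). With the pairing block 4 of the 9 were called higher, against 0.885% of all genes. Of the 9, 7 had a higher fitted level, the median log2 fold change was 0.27, and the lowest was -0.25, for Ncam1. The mean z-scores of this list overlapped, with 0.31, -0.41 and -1.28 in the wild-type mice and 0.82, 0.17 and 0.4 in the mutants. Of the 10 mature neuron genes, 8 were called lower, against 3.15% of all genes, with a median of -1.07. In this list 1 gene went the other way (log2 fold change 0.27), higher at an unadjusted p of 0.05 and with groups apart. The sustentacular and multiciliated cell lists had no gene called by edgeR or DESeq2, and at an unadjusted p of 0.05 they had 0 of 6 and 1 of 8.

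Markers of other tissues, some of them with dividing cells, also differed between these mice. The 12 erythroid genes summed to 59465, 97871 and 77957 normalized counts in the wild-type mice and to 177268, 127739 and 95877 in the mutants. All 12 had a higher fitted level, the median log2 fold change was 0.79, and 2 had groups apart, against 7.17% of all genes. At an unadjusted p of 0.05, 8 of the 12 were higher, against 4.58% of all genes, and DESeq2 called 2. The globin gene Hbb-bt was called higher, with 1753, 2630 and 2428 against 5720, 3983 and 2827 (0.88, adjusted p = 0.0485, and 0.0506 with the pairing block, edgeR's quasi-likelihood test), and was not called in 5 of the 6 fits without 1 mouse, where its adjusted p reached 0.1968 without RTP1,2DKO mouse 1. The call was also lost with scaling by total counts and with an expression filter (adjusted p = 0.1023 and 0.0815, edgeR's quasi-likelihood test).

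The neutrophil, lymphocyte, macrophage and cartilage and bone lists had 0 genes called by edgeR or DESeq2 and 0 at an unadjusted p of 0.05. The neutrophil list had z-scores of -1.58, 0.78 and -0.02 in the wild-type mice and 0.34, -0.15 and 0.63 in the mutants, and the lymphocyte list -0.88, 0.74 and -0.46 against 0.50, 0.00 and 0.10. Cartilage and bone genes had -0.78, 0.08 and -0.21 against 0.61, 0.84 and -0.53, and their collagen gene Col2a1 ranged from 357 to 4346 counts in the wild type and from 750 to 8952 in the mutant. By z-score, wild-type mouse 1 was the lowest wild type in the erythroid, neutrophil, lymphocyte and cartilage and bone lists, and the part of these tissues in the cell cycle difference was not tested.

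**Figure D4:**
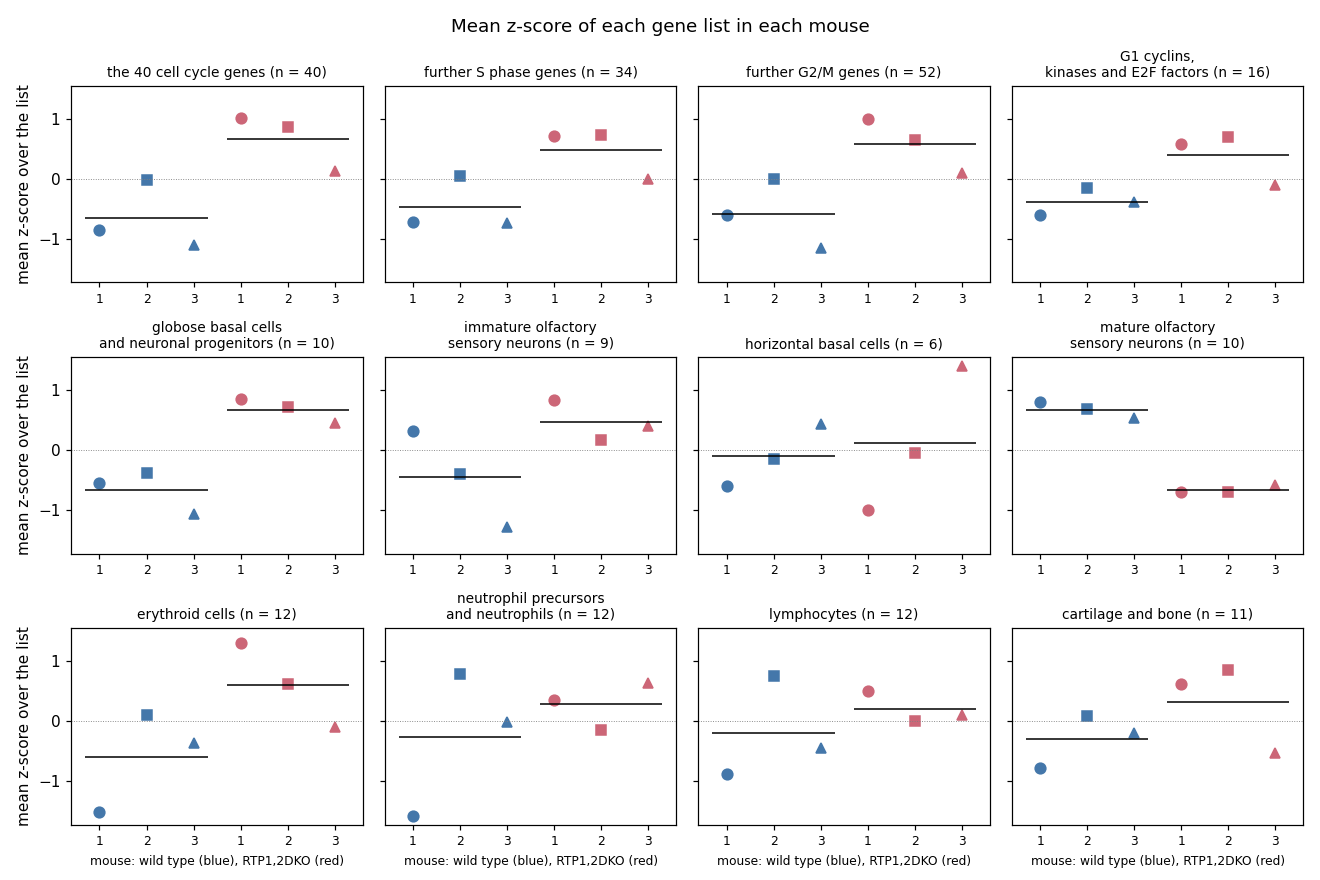
Mean z-score (y axis) of the 40 cell cycle genes and of other gene lists in each of the 6 mice, 1 panel a list and 1 point a mouse. The list of the 40 genes and the progenitor list separate the groups, from -1.11 to -0.03 against 0.12 to 1.01 and from -1.07 to -0.38 against 0.44 to 0.85. The further G2 and mitosis list separates them too, from -1.16 to -0.0 against 0.1 to 0.99. So does the list of G1 cyclins, kinases and E2F factors, from -0.6 to -0.16 against -0.1 to 0.69. The mature neuron list separates them in the other direction. The further S phase list does not, with 0.04 in wild-type mouse 2 and -0.01 in RTP1,2DKO mouse 3, and neither does the neutrophil list.

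Pair by pair, the 40 genes were higher in each mutant than in its same-numbered wild type by a mean log2 difference of 0.67, 0.30 and 0.41 in pairs 1, 2 and 3, with 40, 37 and 38 of the 40 genes higher. The progenitor list had 0.44, 0.34 and 0.53. Erythroid genes had 1.92, 0.32 and 0.18, neutrophil genes 2.30, -0.96 and 0.66, lymphocyte genes 1.00, -0.57 and 0.34, and cartilage and bone genes 1.66, 0.41 and -0.35. Pair 1 thus held the largest difference of the cell cycle list and of these 4 tissue lists. In pair 2 the cell cycle genes were higher by 0.30, erythroid and cartilage and bone genes were higher too, and neutrophil and lymphocyte genes were lower. Without replicate 1 of both groups, the mean log2 fold change of the 40 genes was 0.35 in place of 0.45, with 38 of the 40 above 0 and none called.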

How the data were processed

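RNA-seq libraries of olfactory mucosa from 6 mice were analysed. Per the labels a stranded kit was used, and the authors estimated transcript counts with kallisto against mouse transcripts from UCSC with extended olfactory receptor annotations (mm10 per the labels). The deposited estimated counts and TPM were used. Estimated counts were summed per gene symbol and rounded. DESeq2 (1.42.0) median-of-ratios size factors and edgeR's (4.0.16, R 4.3.3) quasi-likelihood test were applied to the 22152 genes counted at least 1 time in any mouse, with Benjamini-Hochberg adjustment over all of them. The fit was also run on simulated counts, drawn without pairs or shared tissue differences between mice, and the outcome is not reported here. Z-scores used log2(normalized count + 1).

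Mice are separate animals, 3 per group. Same-numbered mice deviated together only weakly (correlations 0.139, 0.179 and 0.103 over 18133 genes averaging 10 or more counts). Mice with unlike numbers had correlations from -0.219 to 0.093. The methods name littermates, but the labels do not say that a number marks a litter. The pairing block was fitted as planned, and whether it follows litters is not known.

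The 40 genes and all lists were chosen with earlier results of these data known. Values per mouse were given for genes called, Mki67, Top2a, Cdk1, Pcna, the most abundant by TPM of each role group and the 3 at each end of the fold changes; others were added after their values were seen. Gene coordinates came from GENCODE (GRCm38).

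Some genes that the naming rule covers are not reported here.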

Additional observations from a re-analysis of the deposited data

How the results depend on the processing

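Of the 40 cell cycle genes, 1 was called higher. Scaling by total counts gave 0, DESeq2 gave 7 and the replicate block (pairing) gave 7. Leaving out 1 mouse gave 0 to 7: 7 without wild-type mouse 2, 0 without wild-type mouse 3, 0 without RTP1,2DKO mouse 2 and 2 without RTP1,2DKO mouse 3. Leaving out a same-numbered pair, chosen after seeing the data, gave 0 without replicate 1, 2 without replicate 2 and 1 without replicate 3. DESeq2 called Mcm3, Ccnb1, Ccna2, Cenpf, Tpx2, Prc1 and Top2a. No fit called a member lower. Of the 86 further genes, 2 were called, against 0 with total counts, 5 with DESeq2, 6 with the replicate block, 0 to 7 with 1 mouse left out and 0 to 1 with a pair left out. Of the 28 G1 and inhibitor genes, 0 were called, or 0 to 1 with 1 mouse left out (1 without wild-type mouse 1).

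The mean log2 fold change of the 40 genes was 0.45, and 0.38 to 0.59 with 1 mouse left out. The z-score difference of 1.32 was 0.51 with log2(TPM + 0.1), and 1.22 to 1.51 with 1 mouse left out. Apart from the calls given with the results and Olfr1110, which it called (adjusted p = 0.0067), the replicate block changed no call of a gene named here. TMM factors and an expression filter left the call of Mcm3 in place, but the filter ended those of Gap43 and Hbb-bt. Leaving out a mouse puts 2 mice in 1 group, so a lost call can reflect fewer mice. With 3 mice a group, an exact permutation test of a single value cannot go below p = 0.1.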

Other observations

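Among 15390 other genes with a mean of at least 50 normalized counts, those whose values over the 6 mice were closest to the mean z-score of the cell cycle genes were Olfr129 (Pearson r = 0.992), Atxn3 (0.991), St18 (0.991), Olfr1110 (0.986) and Ap2s1 (0.985). With 6 mice and that many genes, such values are descriptions. Their log2 fold changes were 0.87, 0.18, 0.76, 0.82 and 0.51.

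TPM values (transcript shares scaled by length) were used to compare mice only in the z-score difference and the sums given for the 40 genes. Obp1b and Bpifb9b, short and abundant secretory transcripts, took 7.0%, 5.68% and 11.4% and 9.34%, 3.7% and 8.16% of all TPM in wild-type mice 1, 2 and 3, and 6.9%, 9.15% and 9.97% and 4.58%, 7.91% and 7.54% in RTP1,2DKO mice 1, 2 and 3. The summed TPM of the 40 genes was 407 ± 148 and 479 ± 130 (SD, n = 3), against 26007 ± 3930 and 35683 ± 4580 for summed normalized counts. Whether Obp1b and Bpifb9b bear on the TPM values of the 40 genes was not tested.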
